A study of Mus musculus with 468 samples.

Results

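Mest, Sfrp5, Bmp3 and Npr3 are 4 genes of adipose tissue whose transcripts have been followed as markers of fat expansion. They were taken by gene symbol from the adipose count table of the study, all 4 were found, and all 4 passed the filter on low counts, as 4 of 23180 genes in the table and of 18380 genes tested. The mice were Diversity Outbred (DO), a stock that mixes the genomes of several inbred founder strains so that animals differ in genotype. The whole group was fed the HFHS diet, rich in fat and sugar and labelled 45 percent fat, and each mouse gave 1 library of polyadenylated RNA from adipose tissue, named only as adipose in the labels. There was therefore 1 group with no untreated control, and the labels give no age, sex, fat depot, generation, body weight or batch. The question put to the data was how the 4 transcripts varied among these mice, whether they varied together, and how they followed leptin (Lep), fatty acid synthase (Fasn) and the macrophage marker Adgre1 (F4/80).

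Each of the 4 genes belongs to another branch of adipocyte biology. Mest (mesoderm specific transcript, also called Peg1) is an imprinted gene expressed from the paternal allele, and its product is an enzyme-like protein of the endoplasmic reticulum known for its link to fat cell enlargement in mice on rich diets. Sfrp5 encodes a secreted frizzled-related protein, a decoy that binds Wnt ligands outside the cell and keeps them from their receptors. Bmp3 encodes an atypical bone morphogenetic protein that can oppose signalling by other BMPs, and Npr3 encodes the natriuretic peptide clearance receptor, which takes up and removes the peptides that stimulate lipolysis through Npr1. Leptin is made by adipocytes and rises with fat mass, Fasn makes fatty acids from acetyl units, and Adgre1 is a surface protein of macrophages.

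Positions are given on GRCm38. Mest (ENSMUSG00000051855) lies on chromosome 6 at 30723547 to 30748465 on the plus strand and shares 912 bases with Copg2 (30747554 to 30896794, minus strand). Sfrp5 (ENSMUSG00000018822) lies on chromosome 19 at 42197971 to 42202252 on the minus strand. Bmp3 (ENSMUSG00000029335) lies on chromosome 5 at 98854415 to 98884396 on the plus strand. Npr3 (ENSMUSG00000022206) lies on chromosome 15 at 11839896 to 11907287 on the minus strand. The 4 genes thus lie on 4 chromosomes. Mest overlaps further annotated genes that are not in the table, among them the microRNA gene Mir335 (30741299 to 30741396), which libraries of polyadenylated RNA do not measure as a mature microRNA. The start of Npr3 overlaps the noncoding gene Gm5144 on the other strand by 769 bases. The use of strand in counting is not given in the sources used here, so reads from such overlaps cannot be assigned to a gene with certainty. None of the expected counts of Mest was a whole number within 1e-06, whereas all counts of Sfrp5, Bmp3 and Npr3 were whole.

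The 250 bases before the transcript start in RefSeq are shown for the members with a promoter entry there (GRCm38.p6), to let a reader see the sequences in front of genes whose transcripts varied together. They are written 5′ to 3′ on the strand of the gene. Capitals mark every match, on either strand, to the GC box (GGGCGG) or the CCAAT box (CCAAT). The Mest window is chr6:30737800-30738049, plus strand. It lies inside the gene boundaries given above, because the RefSeq start used lies downstream of the first base of the gene. The Sfrp5 window is chr19:42202253-42202502, minus strand. The Npr3 window is chr15:11907372-11907621, minus strand. It precedes the RefSeq start, which lies upstream of the gene boundary given above, so it does not adjoin that boundary. Bmp3 is named only.
Mest: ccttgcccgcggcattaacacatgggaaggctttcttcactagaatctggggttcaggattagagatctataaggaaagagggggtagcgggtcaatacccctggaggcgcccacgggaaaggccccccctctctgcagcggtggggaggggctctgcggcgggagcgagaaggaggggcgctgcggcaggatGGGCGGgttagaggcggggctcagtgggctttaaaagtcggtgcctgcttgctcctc
Sfrp5: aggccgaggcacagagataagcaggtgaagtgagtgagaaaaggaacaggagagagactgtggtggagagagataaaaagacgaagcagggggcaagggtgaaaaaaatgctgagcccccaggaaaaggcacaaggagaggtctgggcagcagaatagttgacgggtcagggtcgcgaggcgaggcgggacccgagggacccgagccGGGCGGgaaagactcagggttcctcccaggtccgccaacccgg
Npr3: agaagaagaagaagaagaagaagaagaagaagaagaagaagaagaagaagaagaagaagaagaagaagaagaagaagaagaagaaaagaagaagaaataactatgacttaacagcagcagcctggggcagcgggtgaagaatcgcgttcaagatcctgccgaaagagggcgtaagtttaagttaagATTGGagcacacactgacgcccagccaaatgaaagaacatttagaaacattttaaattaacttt

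The Mest window held 14 CpG dinucleotides and 62.4% G and C, the Sfrp5 window 13 and 59.6%, and the Npr3 window 6 and 38.8%. The windows of Mest and Sfrp5 were thus richer in CpG than that of Npr3, which opens with a run of 84 bases made of repeated gaa units. The GC box occurred once each in the Mest and Sfrp5 windows and not in that of Npr3. The CCAAT box occurred once in the Npr3 window and not in the others. Of 32851 windows of the same length over all genes, 32.7% held a GC box and 33.85% a CCAAT box. No window of the 3 held the TATA box (TATAAA, in 12.4% of all windows), the E-box (CACGTG, 6.02%), the nuclear receptor motif AGGTCA (14.02%) or the C/EBP site (TTGCNNAA, 9.56%). A further start of Mest lies 3 bases downstream, and its window differs from the one shown by that shift alone. A start farther upstream, also inside the gene boundaries, has its window at chr6:30733256-30733505, which held 1 GC box and 1 C/EBP site. These matches describe letters only, and no binding was measured.

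Total expected counts ranged from 35298813 to 137760410 per library (median 82043357), and the correlation of the 4 genes with log10 depth lay between -0.0219 and 0.0891. The 20 adipocyte markers summed to between 21200 and 83700 CPM (counts scaled to library size), so adipocyte transcripts were present in every library. Of the Y chromosome genes Ddx3y, Eif2s3y, Kdm5d and Uty, 51.5% of the libraries had counts and the other 48.5% had none. Since no sex is stated in the labels, this split served to compute relations within each cluster, and the clusters were not tested against each other. Markers of skeletal muscle reached 6750 CPM in 1 library at a median of 57.5 CPM, and those of epididymis, pancreas and liver reached 5670 CPM at a median of 46.1 CPM. Without the 23 libraries highest in these markers, each of the 18 correlations below stayed within its direction and its side of the threshold.

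All 4 transcripts varied widely among mice. Mest had a mean of 217.2 ± 258.2 CPM (SD over all libraries), with a lowest value of 3.88, a median of 114.5 and a highest value of 1306 CPM. Sfrp5 had a mean of 113.3 ± 108.5 CPM, with a lowest value of 0.536, a median of 85.997 and a highest value of 491.7 CPM. These 2 genes had spreads larger than or close to their means, and their upper quartiles exceeded their lower quartiles 9.75-fold for Mest and 10.04-fold for Sfrp5. Bmp3 had a mean of 59.7 ± 32.9 CPM and ranged from 4.16 through a median of 57.01 to 192.2 CPM. Npr3 had a mean of 1078 ± 581.2 CPM and ranged from 51.1 through a median of 1119 to 2442 CPM. The upper quartile of Bmp3 exceeded the lower one 2.32-fold and that of Npr3 2.73-fold, so both were less variable than Mest and Sfrp5. The lowest count of any of them in a library was 27, for Sfrp5, so no value rested on a count near 0.

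On the log2 CPM scale the SD over mice was 2.08 for Mest, 2.35 for Sfrp5, 0.925 for Bmp3 and 1.10 for Npr3. Among 9511 genes averaging 10 CPM or more, ordered by this SD from the largest, Sfrp5 fell within the first 0.915%, Mest within 1.19%, Npr3 within 3.26% and Bmp3 within 4.72%. All 4 were thus among the more variable transcripts of the tissue. Levels can be compared between genes only per length, and per kilobase of exon the means were 114.8 ± 61.9 CPM for Npr3, 59.6 ± 57.1 for Sfrp5, 55.1 ± 65.5 for Mest and 8.07 ± 4.45 for Bmp3. Sfrp5 and Mest, neighbours in this order, differed by far less than the SD over mice, and the ranges of Npr3 and Sfrp5 overlapped.

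The spread was not the same in the 2 clusters. In libraries without Y chromosome counts the median was 56.2 CPM for Mest, 17.9 for Sfrp5, 43.03 for Bmp3 and 587.2 for Npr3. In libraries with them it was 170.8 CPM for Mest, 167.7 for Sfrp5, 65.01 for Bmp3 and 1464 for Npr3. The ranges of the clusters overlapped for each gene, and Sfrp5 came closest to separating, with quartiles of 4.58 and 53.2 CPM without and of 103.4 and 247.2 CPM with Y chromosome counts. The SD of log2 CPM in libraries without Y chromosome counts was 2.23 for Mest, 2.23 for Sfrp5, 0.886 for Bmp3 and 1.14 for Npr3. In those with them it was 1.66, 1.06, 0.899 and 0.633 in the same order, a narrower range in 3 of the 4 genes. Xist and these Y-linked transcripts together accounted for 46.5% of the variance of Sfrp5, 31.7% of that of Npr3, 12.7% of that of Mest and 7.2% of that of Bmp3.

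**Figure D1:**
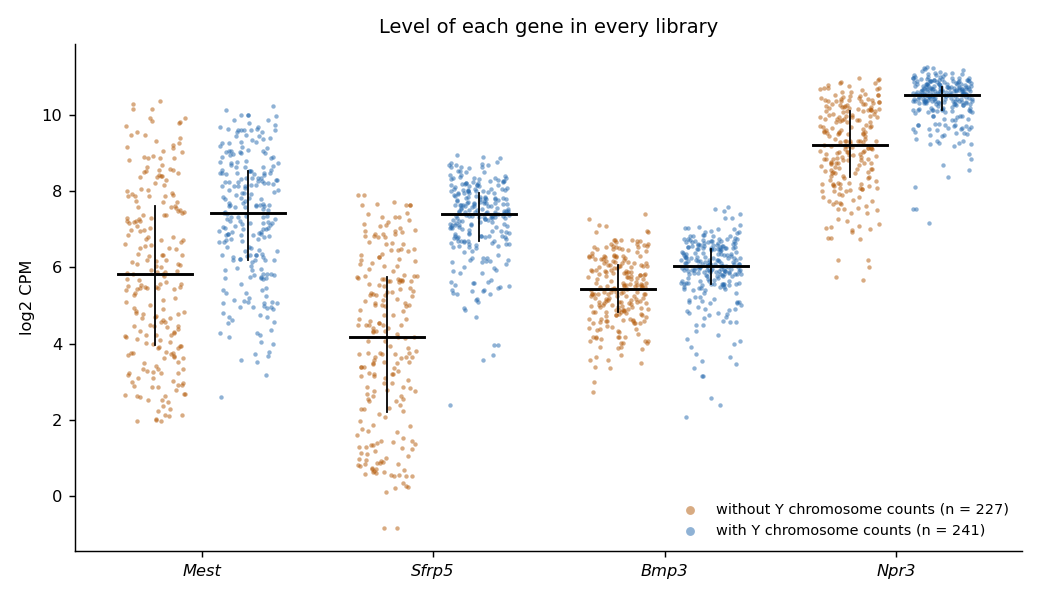
Level of Mest, Sfrp5, Bmp3 and Npr3 as log2 CPM in each library (1 point per library), split by Y chromosome counts. The horizontal bars are medians and the vertical bars run from the lower to the upper quartile. The Sfrp5 points without Y chromosome counts reach down to 0.536 CPM, and those of Npr3 with Y chromosome counts are the most tightly packed.

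The libraries at the ends of 1 gene were often, but not always, at the same end of the others. The lowest Mest level was in mouse DO158, where Sfrp5 was at 1.05, Bmp3 at 16.04 and Npr3 at 133.5 CPM, all within the lowest 5.56% of libraries. The lowest Npr3 level was in mouse DO224, where Mest was at 5.70, Sfrp5 at 1.57 and Bmp3 at 7.98 CPM, all within the lowest 3.85%. The highest Sfrp5 level was in mouse DO213, where Bmp3 was at 108.5 and Npr3 at 2279 CPM, the latter at percentile 98.9 of all libraries. The highest Bmp3 level, in mouse DO080, went with Mest at 101.5, Sfrp5 at 79.5 and Npr3 at 1260 CPM. These levels were at percentiles 47.2, 49.1 and 57.1 of all libraries. DO080 had Y chromosome counts, and its Sfrp5 lay below the lower quartile of that cluster (103.4 CPM). The highest Mest level, in mouse DO258, went with Sfrp5 at 81.4 CPM, percentile 49.6 of all libraries. DO258 had no Y chromosome counts, and its Sfrp5 lay above the upper quartile of that cluster (53.2 CPM). In total, 48 libraries were in the lowest 25% for all 4 genes, 46 of them without Y chromosome counts, and 15 libraries were in the highest 25% for all 4, all with Y chromosome counts. In 26 libraries 1 of the genes was in its lowest 25% and another in its highest.

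The 4 transcripts rose and fell together over the mice. Each of the 6 pairs had a positive correlation of log2 CPM that passed the test in either cluster, by Pearson's r and by Spearman's rho. Each p below is from a two-sided permutation test of 100000 resamples with Benjamini-Hochberg adjustment over 18 relations, whose smallest possible adjusted value is 1e-05. Without Y chromosome counts every pair had an adjusted permutation p of 1e-05, and with them every pair had 1.64e-05, for r and for rho.

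Sfrp5 and Npr3, the Wnt decoy and the clearance receptor, were the pair with the highest pooled correlation. Their r was 0.842 (rho 0.861) without and 0.695 (rho 0.517) with Y chromosome counts, and 0.871 over all libraries. Bmp3 and Npr3 had r of 0.855 (rho 0.864) without and 0.575 (rho 0.362) with Y chromosome counts, and 0.723 pooled. Sfrp5 and Bmp3 had r of 0.804 (rho 0.815) and 0.513 (rho 0.355), and 0.649 pooled. For these last 2 pairs the pooled value lay between those of the clusters.

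Mest was the member least tied to the others. Its r with Npr3 was 0.668 (rho 0.657) without and 0.453 (rho 0.404) with Y chromosome counts, and 0.657 pooled. Its r with Sfrp5 was 0.576 (rho 0.578) and 0.463 (rho 0.391), and 0.602 pooled. Its r with Bmp3 was 0.607 (rho 0.602) and 0.339 (rho 0.299), and 0.527 pooled. All 6 pairs had a lower r in the libraries with Y chromosome counts, and whether the clusters differ in r was not tested. The pooled adjusted permutation p was 1e-05 for each pair.

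**Figure D2:**
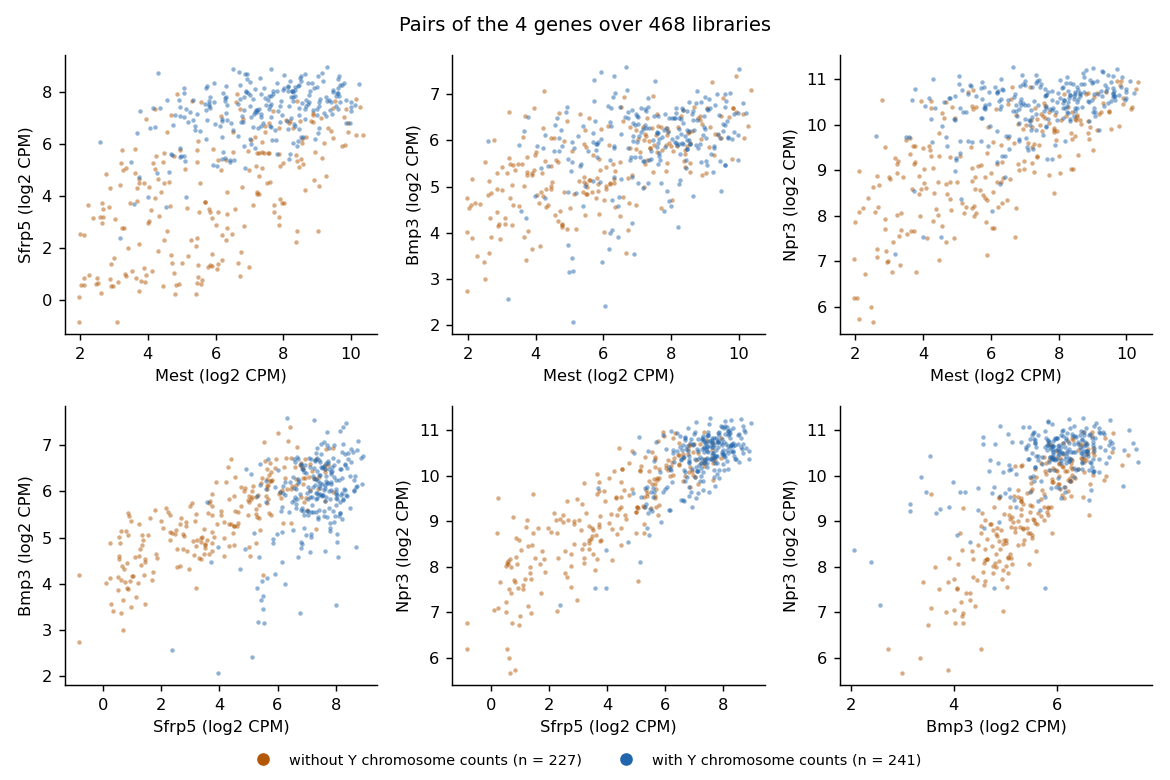
Log2 CPM of each pair of the 4 genes, 1 point per library, split by Y chromosome counts. Sfrp5 against Npr3 forms the narrowest band (pooled r 0.871) and Mest against Bmp3 the widest (0.527), and the libraries with Y chromosome counts crowd at the upper end of Sfrp5 and Npr3.

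The first principal component of the 4 standardised log2 levels held 75.7% of their variance, and all 4 genes had weights of the same sign on it, from 0.455 for Mest to 0.542 for Npr3. Within the clusters it held 79.7% without and 63.4% with Y chromosome counts. A linear fit on the other 3 genes accounted for 81.7% of the variance of Npr3, 76.1% of that of Sfrp5, 52.9% of that of Bmp3 and 44.01% of that of Mest. These shares describe the same libraries and carry no test. In 5 blocks of consecutive library number and 5 of consecutive mouse number (93 or 94 libraries each), used in place of batches that the labels do not name, all 6 pairs kept a positive r past the threshold. The lowest block value was 0.231, for Mest with Bmp3, and the highest 0.907, for Sfrp5 with Npr3. Without the 2 libraries farthest from the median of the gene on the x axis, the 6 values lay between 0.517 and 0.867.

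All 4 genes rose with Lep, the adipocyte hormone that tracks fat mass. Npr3 had r of 0.906 (rho 0.937) with Lep without Y chromosome counts and 0.831 (rho 0.672) in those with them. Sfrp5 had 0.824 (rho 0.862) and 0.624 (rho 0.418), and Bmp3 had 0.782 (rho 0.823) and 0.678 (rho 0.580). Mest had 0.610 (rho 0.627) and 0.444 (rho 0.398). The pooled r was 0.905 for Npr3, 0.812 for Sfrp5, 0.742 for Bmp3 and 0.616 for Mest, and the order of the 4 genes by pooled r was the same as in the libraries without Y chromosome counts. The adjusted permutation p of each was 1e-05 without and 1.64e-05 with Y chromosome counts. Lep itself ranged from 0.736 to 5484 CPM (median 1123), and its lowest library, mouse DO349, was also the lowest for Sfrp5. Without the 2 libraries farthest from the median Lep level, the pooled r lay between 0.617 and 0.910, and over the 10 number blocks it lay between 0.469 and 0.943.

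Fasn, the lipogenic enzyme, went the other way in the libraries without Y chromosome counts. There its r was -0.692 (rho -0.710) with Sfrp5, -0.636 (rho -0.649) with Bmp3, -0.559 (rho -0.589) with Npr3 and -0.467 (rho -0.465) with Mest, each at an adjusted permutation p of 1e-05. In the libraries with Y chromosome counts the values were nearer to 0. Sfrp5 had r of -0.213 (rho -0.228, adjusted permutation p of r 0.00122) and Bmp3 -0.199 (rho -0.190, adjusted permutation p of r 0.00252). Mest had r of -0.0617 (adjusted permutation p 0.340) and rho of -0.00132 (0.984). Npr3 had r of 0.0741 (adjusted permutation p 0.266) and rho of 0.158 (0.0158), so that its sign there was positive and only rho passed the threshold. The pooled r was -0.754 for Sfrp5, -0.603 for Npr3, -0.505 for Bmp3 and -0.460 for Mest. Fasn had a median of 14230 CPM without and 4892 CPM with Y chromosome counts, and the part of this difference in the pooled values was not tested beyond the values within clusters.

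Adgre1 rose with all 4 genes in the libraries without Y chromosome counts, with r of 0.435 (rho 0.518) for Sfrp5, 0.406 (rho 0.475) for Bmp3, 0.401 (rho 0.491) for Npr3 and 0.330 (rho 0.334) for Mest, each at an adjusted permutation p of 1e-05. In the libraries with Y chromosome counts it rose with Bmp3 (r 0.422, rho 0.438, adjusted permutation p 1.64e-05) and Npr3 (r 0.291, rho 0.276, adjusted permutation p of r 3e-05). Its r there was 0.117 with Sfrp5 (adjusted permutation p 0.0833, rho 0.123) and 0.106 with Mest (adjusted permutation p 0.111), and of the 2 only the rho of Mest passed, at 0.203 (adjusted permutation p 0.00163). The pooled r was 0.325 for Mest, 0.482 for Sfrp5, 0.473 for Bmp3 and 0.488 for Npr3. The relation of Mest with Adgre1 also missed the threshold in 1 block of library numbers (r 0.159) and 1 block of mouse numbers (r 0.175). In such bulk tissue, more macrophages and more Adgre1 RNA per macrophage cannot be told apart, and the same holds for any cell type below.

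**Figure D3:**
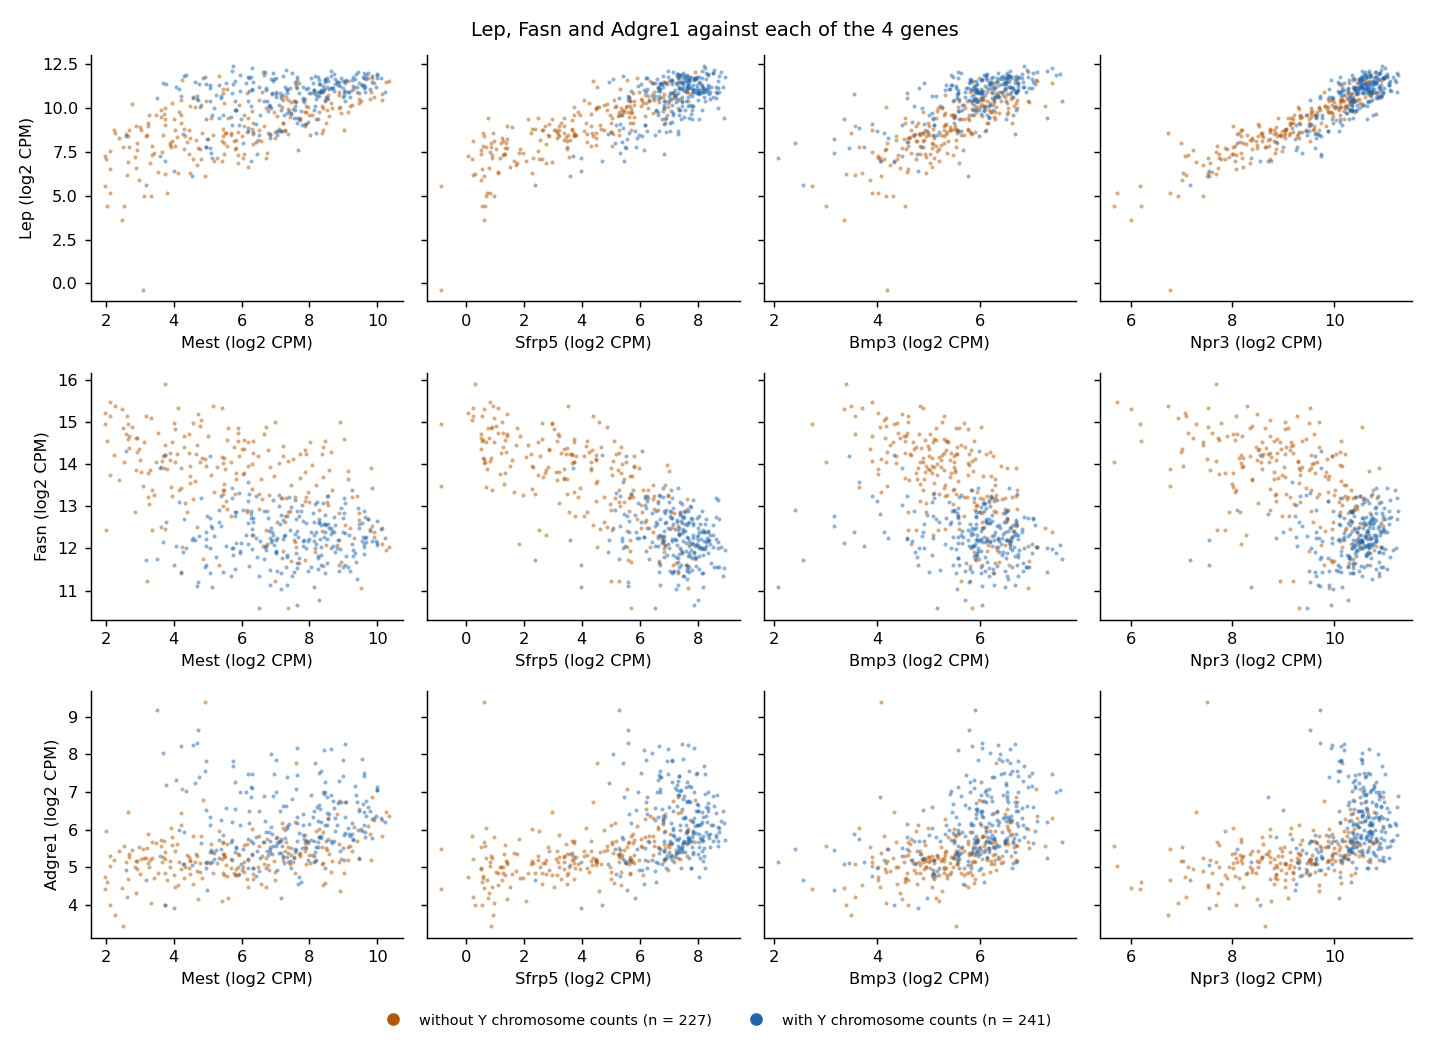
Log2 CPM of Lep, Fasn and Adgre1 (rows) against each of the 4 genes (columns), 1 point per library, split by Y chromosome counts. Lep against Npr3 is the tightest relation (pooled r 0.905). Fasn falls along each gene in libraries without Y chromosome counts (r between -0.692 and -0.467 there). The highest Adgre1 level (671.6 CPM, mouse DO021) is not at the high end of the 4 genes. There Mest was at 30.18, Sfrp5 at 1.518, Bmp3 at 16.78 and Npr3 at 181.7 CPM.

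The relations were next computed on residuals from a fit on Lep. The 6 pairs then kept a positive r past the threshold, at lower values. Sfrp5 with Npr3 remained at 0.549 and Mest with Npr3 at 0.295, while Mest with Sfrp5 was at 0.220, Bmp3 with Npr3 at 0.181, Mest with Bmp3 at 0.132 and Sfrp5 with Bmp3 at 0.118. The largest remaining relation with Fasn over all libraries was that of Sfrp5 (r -0.597), followed by Npr3 (-0.226), Mest (-0.159) and Bmp3 (-0.136). Split by cluster, Sfrp5 with Fasn given Lep had r of -0.513 without Y chromosome counts (adjusted permutation p 2.33e-05). With them it had -0.168 (adjusted permutation p 0.0156), and the largest in size there was that of Npr3 (0.336). Over all libraries the relations of Sfrp5, Bmp3 and Mest with Adgre1 missed the threshold given Lep. There r was 0.00758 for Sfrp5 (adjusted permutation p 0.872), 0.0657 for Bmp3 (0.181) and -0.0605 for Mest (0.206), and for Npr3 it turned to -0.131 (0.00685).

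Within clusters the values given Lep differed again. Without Y chromosome counts Bmp3 with Npr3 had r of 0.555 and Sfrp5 with Bmp3 0.453, whereas with Y chromosome counts they had 0.0270 (adjusted permutation p 0.730) and 0.156. With Y chromosome counts Npr3 given Lep had r of 0.336 with Fasn and -0.443 with Adgre1, and Sfrp5 had -0.398 with Adgre1, all at an adjusted permutation p of 3.5e-05. Without Y chromosome counts the same 3 values were -0.189, 0.112 and 0.210, of which the second missed the threshold (adjusted permutation p 0.0897). Bmp3 with Adgre1 given Lep was past it without Y chromosome counts (r 0.169, adjusted permutation p 0.0155) but not with them (0.0373, adjusted permutation p 0.658). Over all libraries, given Lep, Xist and Y-linked transcripts, it was at 0.114 (adjusted permutation p 0.0165). The signs of the 3 values first named were thus opposite in the clusters, and the difference between clusters was not tested. Residuals on Adgre1 moved the relations less: the 6 pairs then had r between 0.449 and 0.831.

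**Figure D4:**
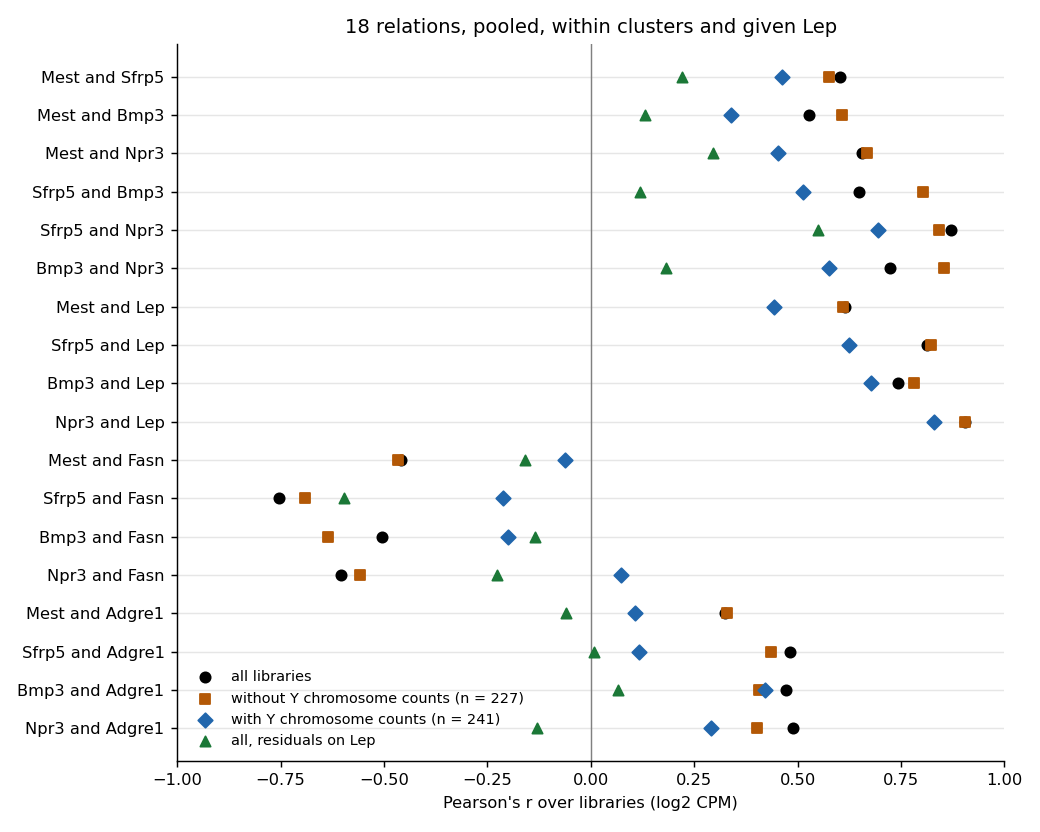
Pearson's r over libraries of log2 CPM for the 18 relations, over all libraries, within each cluster, and over all libraries on residuals from Lep (not defined for relations with Lep). The 6 pairs and the relations with Lep stay right of 0 in all series, the Fasn values with Y chromosome counts lie between -0.213 and 0.0741, and the Adgre1 values given Lep lie between -0.131 and 0.0657.

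Each gene was then tested for association with each of the 4 members across all libraries, by edgeR's quasi-likelihood test on the counts, and the slope is the change of the tested gene on the log2 scale per SD of the log2 level of the member. The associations were so wide that a call alone says little. With Mest, 33.9% of the 18379 other genes rose and 37.1% fell at an adjusted p under 0.05. With Sfrp5 40.6% rose and 39.3% fell, with Bmp3 35.3% rose and 38.8% fell, and with Npr3 37.9% rose and 41.2% fell. The genes named next are therefore those with the highest or lowest r among 9510 genes averaging 10 CPM or more, given as a description. The middle of the r values over all other genes was near 0 for each member (medians from -0.00498 to 0.00971), and 95% of them lay below 0.411 for Mest, 0.576 for Sfrp5, 0.497 for Bmp3 and 0.587 for Npr3.

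The transcript nearest to Mest was its overlapping neighbour Copg2, a coat protein subunit of vesicle transport, with r of 0.842 (0.827 without and 0.849 with Y chromosome counts). Copg2 had 61.8 ± 15.97 CPM and a slope of 0.289 ± 0.0083 (SE, edgeR adjusted p 4.66e-127). Because both genes share 912 bases at their 3′ ends, on opposite strands, reads divided between them cannot be told apart from a shared change. Npr3 came second with 0.657, followed by the noncoding gene 1700047G03Rik (0.641), the matrix proteoglycan gene Prelp (0.639) and the matrix protease gene Adamts5 (0.628). Apart from Copg2, then, the transcripts closest to Mest included another member and matrix genes. The lowest values were those of Mboat7, a phospholipid acyltransferase (-0.614), the chromatin factor Dpf2 and the zinc finger gene Zfp629 (both -0.595), the RNA-binding Pcbp2 (-0.591) and Aldh4a1, an enzyme of proline breakdown (-0.589).

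Sfrp5 was closest to Prelp (r 0.877, and 0.862 without and 0.754 with Y chromosome counts), whose slope was 0.725 ± 0.020 (edgeR adjusted p 4.33e-134). Npr3 (0.871), Ccdc9b (0.855), 1700047G03Rik (0.849) and Map4, a microtubule-associated protein gene (0.839), followed. At the other end stood Aldh4a1 (-0.846), Timm44 (-0.834), Phb2 (-0.826), Mterf4 (-0.826) and C1qbp (-0.825), all of which encode mitochondrial proteins. Within clusters these 5 lay between -0.818 and -0.707 without and between -0.614 and -0.423 with Y chromosome counts, so the sign held in both.

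Bmp3 was closest to Fgf13 (r 0.760), a nonsecreted member of the fibroblast growth factor family on the X chromosome, with 0.793 without and 0.696 with Y chromosome counts and a slope of 1.04 ± 0.049 (edgeR adjusted p 1.35e-67). Lep came second with 0.742, then Jpt2 (0.727), the transcription cofactor gene Vgll3 (0.726) and 1700047G03Rik (0.724). The lowest r values belonged to Sephs2, an enzyme of selenoprotein synthesis (-0.711), the aldehyde dehydrogenase Aldh2 (-0.706), the mitochondrial sulfurtransferase Tst (-0.704), Hsd17b10 (-0.694) and the ribosome assembly gene Rrs1 (-0.687). The 5 lowest lay between -0.745 and -0.660 without and between -0.668 and -0.635 with Y chromosome counts.

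Npr3 had the highest values of the 4 members. The noncoding gene 1700047G03Rik, which lies on the same chromosome (11964276 to 11970086, plus strand) 56.99 kilobases from the start of Npr3, had r of 0.941 (0.936 without and 0.865 with Y chromosome counts). Its level was 36.03 ± 34.2 CPM and its slope 2.03 ± 0.042 (edgeR adjusted p 2.42e-180). Prelp (0.908), Lep (0.905), the tetraspanin Tspan17 (0.895) and Fads3, a member of the fatty acid desaturase family (0.895), came next. The lowest values were those of Zfp629 (-0.836), Mboat7 (-0.833), Safb2 (-0.831), Adck2 (-0.819) and Pcbp2 (-0.815).

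Likeness was not mutual between members. Npr3 held place 2 of 9510 among the genes ordered by r with Mest, and place 2 with Sfrp5 and 6 with Bmp3. In the order by r with Npr3, however, Sfrp5 held place 12, and Bmp3 and Mest stood lower, with r of 0.723 and 0.657. Lep held place 3 with Npr3, 2 with Bmp3, 9 with Mest and 19 with Sfrp5. The transcript closest to Npr3 outside its own locus neighbour was thus not a member.

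Among genes of the Wnt pathway, 52 of 57 listed could be tested with Sfrp5. Of these 29 rose, 14 fell and 9 did not pass, against the 40.6% and 39.3% of all genes, and their median r was 0.123 against 0.00971 over all genes (0.122 without and 0.0196 with Y chromosome counts). with Xist and Y-linked transcripts as edgeR covariates 23 rose and 8 fell, against 31.6% and 35.94% of all genes. The 5 with the largest r in size were the receptors Fzd4 (r 0.731) and Fzd5 (0.648), Apc, a scaffold of the beta-catenin destruction complex (0.636), the signal transducer Dvl2 (-0.628) and Sfrp1, a decoy of the same family as Sfrp5 (0.602). Fzd4 had r of 0.770 without and 0.572 with Y chromosome counts and a slope of 0.288 ± 0.013 (edgeR adjusted p 1.71e-74).

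The other secreted decoys did not share one pattern with Sfrp5. Sfrp1 had a slope of 0.773 ± 0.049 (edgeR adjusted p 1.12e-44), but its r was 0.291 without and -0.103 with Y chromosome counts. Sfrp2 had r of 0.0822 (0.377 and 0.306 within the clusters) and a slope of 0.0623 ± 0.029 (edgeR adjusted p 0.0395), which did not pass with limma (0.0515, adjusted p 0.0907) or with Adgre1 and Lep as covariates (0.0829, adjusted p 0.138). Sfrp4 had r of -0.0410 (0.439 and 0.194 within the clusters) and a slope of -0.0446 ± 0.049 (edgeR adjusted p 0.398), which became 0.336 with Xist and Y-linked transcripts as covariates (adjusted p 2.93e-08). Frzb had a slope of -0.381 ± 0.071 (edgeR adjusted p 2.05e-07), which turned to 0.252 in that model (adjusted p 0.00166), with r of 0.357 without and -0.0604 with Y chromosome counts. With Adgre1 and Lep as covariates the slope of Sfrp4 was -0.446 (edgeR adjusted p 8.56e-08). The direction of Sfrp4 and Frzb with Sfrp5 thus depended on the covariates.

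Among genes of BMP and activin signalling, 43 of 44 listed were tested with Bmp3. Of these 22 rose, 8 fell and 13 did not pass, against the 35.3% and 38.8% of all genes, and their median r was 0.133 against 0.00616 over all genes (0.166 without and -0.0177 with Y chromosome counts). Adjusted for Xist and Y-linked transcripts, 21 rose and 7 fell, against 32.78% and 37.06%. The 5 with the largest r were the activin-binding protein Fstl3 (0.606), the activin subunit Inhbb (0.549), the receptors Acvr1b (0.527) and Bmpr1a (0.504) and the BMP antagonist Nog (0.496). All 5 rose, with slopes from 0.130 to 0.492. With Adgre1 and Lep as covariates 4 of them no longer passed, namely Fstl3 (slope 0.0325, edgeR adjusted p 0.432), Acvr1b (0.0275, 0.342), Bmpr1a (0.0324, 0.0582) and Nog (0.0972, 0.238). Fstl3 had r of 0.695 without and 0.423 with Y chromosome counts. Gdf10, the family member closest to Bmp3, had r of 0.250 (0.166 and 0.00422 within the clusters) and a slope of 0.161 ± 0.031 (edgeR adjusted p 7.19e-07). That slope turned to -0.0751 (adjusted p 0.162) with Adgre1 and Lep in the model.

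Of 22 listed genes of natriuretic peptide signalling, 17 were tested with Npr3, and the genes of the 3 peptides themselves were not among them. Of the 17, 7 rose, 8 fell and 2 did not pass, namely Mme and Prkg1, named after their values were seen. This share was close to the 37.9% and 41.2% of all genes, and the median r was 0.00962 against -0.00498 over all genes. When Xist and Y-linked transcripts were covariates, 6 rose and 6 fell, against 31.03% and 40.54% of all genes. The largest r in size were those of Gnai2 (0.749) and Gnai3 (0.677), subunits of inhibitory G proteins of the kind to which Npr3 couples, of the actin regulator and kinase substrate Vasp (0.626), of the peptide-degrading enzyme Ide (-0.532) and of the proprotein convertase Furin (-0.416). Ide had r of -0.470 without but 0.147 with Y chromosome counts.

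The signalling receptors of the family showed small slopes of the opposite sign. Npr1, the guanylyl cyclase receptor through which natriuretic peptides stimulate lipolysis, had 101.1 ± 20.8 CPM and a slope of -0.107 ± 0.013 per SD of Npr3 (edgeR adjusted p 7.77e-16). Its r was -0.351 pooled, -0.0385 without and -0.155 with Y chromosome counts, and with Xist and Y-linked transcripts as covariates the slope of -0.0255 no longer passed (adjusted p 0.0854). Npr2, the receptor for the C-type peptide, had 72.3 ± 13.4 CPM and a slope of -0.0640 ± 0.013 (edgeR adjusted p 1.13e-06), which turned to 0.190 with Adgre1 and Lep in the model (adjusted p 1.32e-14). Compared with Npr3, whose levels spanned 47.8-fold between the lowest and the highest library, both receptors varied little.

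Mest was set against 28 of 30 listed imprinted genes. Of these 10 rose, 11 fell and 7 did not pass, a share close to the 33.9% and 37.1% of all genes, and the median r was -0.0127. In the model with those covariates 10 rose and 6 fell, against 25.51% and 32.81% of all genes. Next to Copg2, the largest r in size were those of Peg10 (0.542), a paternally expressed gene on the same chromosome, Zrsr1 (-0.456), Nnat (0.436) and Gnas (-0.418), the last encoding a stimulatory G protein subunit. Peg10 had r of 0.545 without and 0.457 with Y chromosome counts and a slope of 0.479 ± 0.036 (edgeR adjusted p 1.47e-32). Nnat had 0.503 and 0.0371, and Gnas -0.375 and -0.0208, so both were near 0 in the libraries with Y chromosome counts.

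Most of the listed lipogenic genes fell with each of the 4 members. Of 20 genes, 16 fell with Mest, 18 with Sfrp5, 17 with Bmp3 and 16 with Npr3, beside 37.1%, 39.3%, 38.8% and 41.2% of all genes, and the median r was -0.377, -0.648, -0.446 and -0.514 in that order. The 2 that rose with each member, named after their values were seen, were Dgat2, the last step of triglyceride synthesis, and the desaturase Scd2. Fasn is 1 of the 20 and had slopes of -0.542 ± 0.042 with Mest, -0.839 ± 0.030 with Sfrp5, -0.663 ± 0.043 with Bmp3 and -0.700 ± 0.037 with Npr3. In the libraries with Y chromosome counts the medians were only -0.0510, -0.147, -0.189 and 0.0670, against -0.352, -0.581, -0.520 and -0.442 without. In the fit with Xist and Y-linked covariates, 16, 16, 17 and 15 fell, beside 32.81%, 35.94%, 37.06% and 40.54% of all genes. No test compared the list with other genes.

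Genes of caveolae, the small pits of the adipocyte membrane, had the highest median r with Npr3 of the lists examined. Of 8 tested genes 7 rose with each member, beside 33.9%, 40.6%, 35.3% and 37.9% of all genes with Mest, Sfrp5, Bmp3 and Npr3, and Pacsin3 fell, and the median r was 0.485 for Mest, 0.638 for Sfrp5, 0.471 for Bmp3 and 0.740 for Npr3. Within clusters the Npr3 median was 0.727 without and 0.581 with Y chromosome counts. Cavin3 had the steepest slopes of the 8, at 0.378 with Mest, 0.503 with Sfrp5, 0.415 with Bmp3 and 0.598 with Npr3. Cav1, the main caveolar coat protein, had 0.256, 0.341, 0.259 and 0.404. Pacsin3, Cavin3 and Cav1 were named after their values were seen. When Xist and Y-linked transcripts were covariates, the counts of 7 and 1 were the same for each member, beside 25.51%, 31.6%, 32.78% and 31.03% of all genes rising.

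Macrophage markers rose with the members. Of 19, among them Adgre1, 17 rose with Mest, all 19 with Sfrp5, and 18 each with Bmp3 and Npr3, beside 33.9%, 40.6%, 35.3% and 37.9% of all genes. Those that did not pass were Cd163, the hemoglobin scavenger receptor of resident macrophages, and, for Mest alone, also Cd14, both named after their values were seen. The median r was 0.329, 0.504, 0.473 and 0.488 for Mest, Sfrp5, Bmp3 and Npr3. In the libraries with Y chromosome counts it was 0.106, 0.117, 0.401 and 0.270, so the values of Mest and Sfrp5 were lower there. The summed level of the 19 markers ranged from 490 to 11300 CPM (median 1530). Adjusted for Xist and Y-linked transcripts, 14, 17, 18 and 18 rose, beside 25.51%, 31.6%, 32.78% and 31.03% of all genes. Adgre1 itself no longer passed in that fit with Mest (slope 0.0598, edgeR adjusted p 0.208) and with Sfrp5 (0.0957, adjusted p 0.105). The r on residuals from Xist and Y-linked transcripts did pass, however. It was 0.191 for Adgre1 with Mest (adjusted permutation p 6e-05) and 0.26 with Sfrp5 (adjusted permutation p 1.06e-05).

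Of 20 adipocyte markers, 14 fell with Mest, 15 with Sfrp5, 15 with Bmp3 and 14 with Npr3, beside 37.1%, 39.3%, 38.8% and 41.2% of all genes, and the median r was between -0.350 and -0.212. In the libraries with Y chromosome counts the median r was -0.0419 for Mest, 0.0303 for Sfrp5, -0.306 for Bmp3 and 0.0754 for Npr3. With Xist and Y-linked covariates 10, 12, 14 and 11 fell, beside 32.81%, 35.94%, 37.06% and 40.54% of all genes. Cd36, Lpl and Cidec rose with each of the members, and Aqp7 and Plin4 with all but Bmp3, all named after their values were seen. The 20 markers summed to 54900 CPM in the median library, and the r of that sum was -0.212 with Mest, -0.333 with Sfrp5, -0.379 with Bmp3 and -0.264 with Npr3. These values are over all libraries, and the part of cell mixture in their variation was not tested.

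Progenitor markers summed to between 4070 and 22600 CPM, and the r of the sum was from 0.179 with Mest to 0.300 with Npr3. For the endothelial sum r was from 0.165 with Bmp3 to 0.358 with Sfrp5. For the B cell sum it was from 0.153 with Mest to 0.332 with Sfrp5, and for the T cell sum from 0.271 with Mest to 0.384 with Bmp3. However, 2 of the 8 T cell genes rose with each member, beside 33.9% to 40.6% of all genes. The median r of the 8 was between 0.000538 and 0.0454. In libraries with Y chromosome counts it was between -0.212 and -0.035, and that of the B cell genes between -0.0623 and 0.108. With Xist and Y-linked covariates, 2 T cell genes rose and 3 fell with Npr3, beside 31.03% and 40.54% of all genes. Of 6 B cell genes, 1 then rose with Npr3 and 6 with Sfrp5, beside 31.03% and 31.6%. The mesothelial sum had values between -0.173 and -0.0147. The sums of skeletal muscle markers (r from -0.0133 to 0.0583) and of epididymis, pancreas and liver markers (0.0416 to 0.126) were close to 0 with each member. Of 8 skeletal muscle genes tested singly, however, 3 fell with Mest, 7 with Sfrp5, 6 with Bmp3 and 7 with Npr3. The shares of all genes falling were 37.1%, 39.3%, 38.8% and 41.2%, so the count with Mest was near that share. The median slopes were -0.157, -1.03, -0.706 and -1.12. With Xist and Y-linked covariates 0 fell with Mest, 7 with Sfrp5, 5 with Bmp3 and 6 with Npr3. The shares of all genes were then 32.81%, 35.94%, 37.06% and 40.54%. The muscle markers summed to a median of 57.5 and a maximum of 6750 CPM, and how far these slopes rest on few libraries was not tested. None of these sums reached the values that Lep had with the members.

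**Figure D5:**
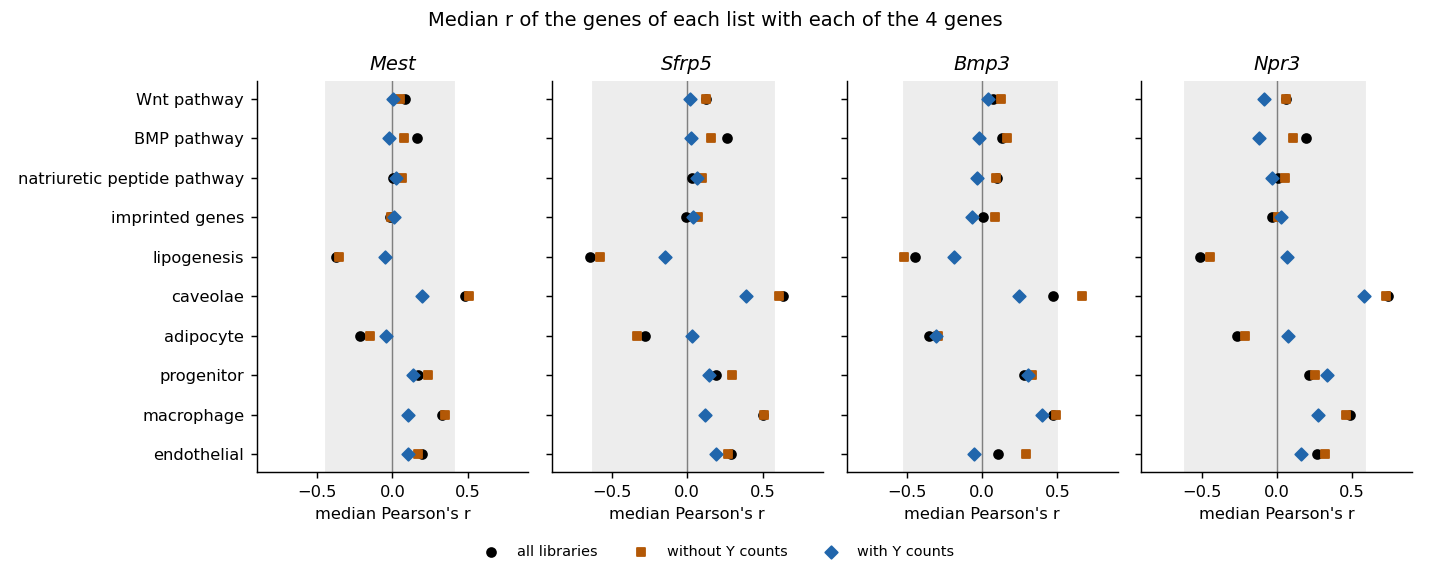
Median Pearson's r of the genes of 10 lists with each of the 4 genes, over all libraries and within each cluster. The grey band runs from the 5th to the 95th percentile of r over all other tested genes. The point farthest to the right is that of caveolar genes with Npr3 (0.740), and farthest to the left that of lipogenic genes with Sfrp5 (-0.648). With Bmp3, macrophage genes (0.473) lie slightly to the right of caveolar genes (0.471). Caveolar and lipogenic genes both lie nearer to 0 in libraries with Y chromosome counts.

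The order of the mice and libraries was tested by linear slopes only. Libraries without and with Y chromosome counts came in stretches of mouse numbers, such as DO021 to DO070 without and DO071 to DO120 with. A linear slope cannot show steps between such stretches, so cluster and mouse order are not separated here. With mouse number, 23.9% of 18380 genes passed the edgeR test, and of the 4 members only Sfrp5 did, at 0.139 ± 0.055 on the log2 scale per 100 numbers (SE, adjusted p 0.0483). In the fit with Xist and Y-linked covariates, its slope was -0.0378 (adjusted p 0.678). Mest, Bmp3 and Npr3 had slopes of 0.0600 ± 0.057, 0.0111 ± 0.026 and 0.0272 ± 0.029 (edgeR adjusted p 0.469, 0.789 and 0.522). With library number, 0.267% of genes passed and none of the members did, with slopes between -0.0181 and 0.0333 per 100 numbers and edgeR adjusted p between 0.725 and 0.996.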

How the data were processed

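Polyadenylated adipose RNA was sequenced, 1 library per mouse. The deposited expected counts were made by the authors with EMASE through GBRS from reads aligned to founder-strain transcriptomes, after removal of low transcripts. The deposited log2 values are the authors' variance-stabilized counts (DESeq2), used here as an alternative. Versions of these tools, and whether counting used strand, were not stated. Expected counts were rounded for count models. The 18380 of 23180 genes with at least 10 counts in at least 50% of libraries were kept. TMM-scaled log2 CPM used a prior count of 2. Pearson's r and Spearman's rho were tested by two-sided permutation (100000 resamples) with Benjamini-Hochberg adjustment over 18 relations (14 where Lep or Adgre1 was held). Genes were tested against each member, and against mouse and library number, with edgeR's quasi-likelihood test (edgeR 4.0.16). Benjamini-Hochberg adjustment was over all genes, at 0.05. The fit on Mest was also run on counts simulated for each gene independently, which lack the wide co-variation of the real genes. Fits with limma 3.58.1 and DESeq2 1.42.0, other scalings, filters, blocks and covariates were alternatives. The depth of 35298813 to 137760410 counts per library keeps counting error small beside the spread over mice. The p-values test association over libraries taken as independent mice, and kinship and unlabelled batches were not modelled. Named genes were the members, Lep, Fasn and Adgre1, the 5 highest and 5 lowest in r per member among genes averaging 10 CPM or more, the 5 largest in size of each pathway list, and Npr1, Npr2, Sfrp1, Sfrp2, Sfrp4, Frzb, Gdf10 and Copg2. Members and lists were chosen with earlier results of these data known.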

Additional observations from a re-analysis of the deposited data

How the results depend on the processing

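The labels give neither batch nor sex, the blocks only stand in for batches, and Lep stands in for fat mass, so limits of the design remain. No paired analysis was possible because all libraries belong to 1 group. Of the settings, leaving out the 23 libraries, holding Lep with Xist and Y-linked transcripts, holding Lep within clusters, and r of named genes within clusters were chosen after seeing the data. The cause of each change below was not tested unless stated. The SD of the deposited log2 values was 1.985 for Mest, 2.072 for Sfrp5 and 0.8702 for Bmp3, and the mean of that scale was not compared. Of the correlations between members under other settings, 98.7% kept their direction and side of the threshold and 2 missed it, both with Y chromosome counts given Lep (Mest with Bmp3 0.0571, Bmp3 with Npr3 0.0270). Of those with Lep, Fasn and Adgre1, 92.1% kept both. With Y chromosome counts, r was -0.0617 for Mest with Fasn, 0.0741 for Npr3 with Fasn, 0.106 for Mest with Adgre1 and 0.117 for Sfrp5 with Adgre1. Given Lep, r with Adgre1 was -0.0605 for Mest, 0.00758 for Sfrp5, 0.0657 for Bmp3 and -0.131 for Npr3. Given Lep, Xist and Y-linked transcripts, it was -0.0841 for Mest, -0.158 for Sfrp5 and -0.228 for Npr3, and Npr3 with Fasn was at -0.0794. Without Y chromosome counts given Lep, r with Adgre1 was 0.122 for Mest and 0.112 for Npr3. With Y chromosome counts given Lep, it was -0.215 for Mest, -0.398 for Sfrp5, 0.0373 for Bmp3 and -0.443 for Npr3, while r with Fasn was -0.00274 for Mest and 0.336 for Npr3. Mest with Adgre1 was at 0.159 in library number block 4 and at 0.175 in mouse number block 1. The slope of Sfrp5 per 100 mouse numbers no longer passed without the filter (0.137) or with limma (0.171). With Xist and Y-linked covariates the slopes per 100 mouse numbers were -0.0378 for Sfrp5, -0.0234 for Bmp3 and -0.0382 for Npr3, and that of Sfrp5 per 100 library numbers was 0.0257 (0.0553 with limma). With only genes averaging 10 CPM or more, fewer genes were tested, and 3681 rose and 3902 fell with Mest (6239 and 6820 over all genes tested), 4058 and 4072 with Sfrp5 (7468 and 7229), 3889 and 4054 with Bmp3 (6487 and 7127) and 3922 and 4176 with Npr3 (6959 and 7579). With Adgre1 and Lep in the model, 1674 rose and 2061 fell with Mest, and 2700 and 3247 with Bmp3. Slopes that turned were those of Sfrp4 (0.336) and Frzb (0.252) with Sfrp5 with Xist and Y-linked covariates, and of Gdf10 with Bmp3 (-0.0751) and Npr2 with Npr3 (0.190) when Adgre1 and Lep were. Of all slopes of named genes under other settings, 96.1% kept direction and call, 15 no longer passed and 1 newly passed (Sfrp4 with Sfrp5, -0.446 with Adgre1 and Lep as covariates). With these covariates the calls lost were those of Zrsr1 with Mest (-0.00314), Dvl2 (-0.0176) and Sfrp2 (0.0829) with Sfrp5, 1700047G03Rik (0.123), Fstl3 (0.0325), Acvr1b (0.0275), Bmpr1a (0.0324), Nog (0.0972) and Sfrp5 (0.161) with Bmp3, and Vasp (0.0451) and Npr1 (-0.0324) with Npr3. With Xist and Y-linked covariates they were those of Adgre1 with Mest (0.0598) and Sfrp5 (0.0957) and Npr1 with Npr3 (-0.0255), and with limma that of Sfrp2 with Sfrp5 (0.0515).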
